A study of Mus musculus with 6 samples.

Results

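The aminoacyl-tRNA synthetase family of cultured mouse lung endothelial cells is described here as 38 genes: 20 that encode cytosolic synthetases or their subunits, 2 scaffold proteins of the multisynthetase complex (Aimp1 and Aimp2), and 16 mitochondrial synthetases, whose symbols end in 2. The members were matched by gene symbol to the 33006 genes of the count tables, and all 38 were found and passed the filter on low counts. The family was chosen by its log2 fold changes and calls in the H2O2 comparison of these same libraries, so the changes below describe the members and are not an independent test of them. The list is not every gene of tRNA charging, and further factors are counted separately below.

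The cells were primary pulmonary endothelial cells of C57BL/6 mice, grown in EBM-2 medium with a microvascular endothelial supplement. At 80% confluence they received either water (control, 3 libraries) or 300 uM hydrogen peroxide (H2O2, 3 libraries), and RNA was taken after 6 hours in both groups. The labels give no age or sex and do not say whether the 3 libraries of a group came from separate cultures or animals, so the errors cover library-to-library differences alone, and these could be technical. Each library is bulk RNA, in which fewer cells of a type and less RNA per cell cannot be told apart.

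Aminoacyl-tRNA synthetases attach amino acids to their tRNAs and so supply the ribosome with charged tRNA. One set works in the cytosol and another in mitochondria, and all of these enzymes are encoded in the nucleus. Gars and Kars each serve both compartments from a single gene, Eprs carries the glutamate and proline activities in one polypeptide, and Farsa and Farsb are the subunits of the cytosolic phenylalanine enzyme. Several cytosolic enzymes are held in a multisynthetase complex by the scaffold proteins. Many cytosolic synthetase genes are known targets of ATF4, the transcription factor induced when the kinase GCN2 senses uncharged tRNA or when another kinase phosphorylates eIF2 alpha.

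The libraries held 22455388 to 27618679 reads counted in genes. Endothelial markers summed to 4408 to 4504 normalised read counts (CPM, the reads of a gene relative to the TMM-scaled library size) in controls and 4635 to 4671 with H2O2, with Cldn5 under 1 CPM; 3 of the 9 tested markers rose and 0 fell, and the part of this in the results below was not tested. All 8 epithelial markers were under 1 CPM, and Sftpc, Krt8 and Scgb1a1 were at 0 in every library. Fibroblast and mural markers summed to 28.9 to 30.8 CPM in controls and 26.5 to 30.8 with H2O2, with Col1a2 at 0. Leukocyte markers summed to 165 to 171 CPM and 171 to 176 CPM, of which Cd68 was 163 on average, while Cd3e was at 0 and Ptprc was under 1 CPM. H2O2 replicate 3 stood apart in features that include the mitochondrial member Lars2, as given below. Over genes, its chi-square per degree of freedom was 8.61 against H2O2 replicate 1 and 10.96 against H2O2 replicate 2. The other pairs of replicates within a group had values from 1.62 to 2.86.

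With H2O2, 19 of the 20 cytosolic synthetase genes fell and 0 rose, and in these 19 genes all 3 H2O2 libraries lay below all 3 controls. The median log2 fold change of the 20 genes was -0.21, or a change of -13.4%, against -0.00412 for all tested genes. In the same fit, edgeR's quasi-likelihood test across 12924 genes with an adjusted p under 0.05, 10.8% of all genes were called lower and 9.7% higher, and 18.2% had all H2O2 libraries below all controls. Over both directions these shares were 20.5% called and 34.6% without overlap. DESeq2's test, which called 18.3% of 11170 genes in either direction, called 18 cytosolic and 3 mitochondrial members lower. Among the 3486 genes at or above the level of Farsa, the least abundant cytosolic member by CPM, 21.2% were called lower. Of the 38 members, 0 were called higher by edgeR or by DESeq2, and none with a log2 fold change above 0 had an unadjusted edgeR p under 0.05. Because the rule for the members used this contrast, nothing is read from the difference between these shares.

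**Figure D1:**
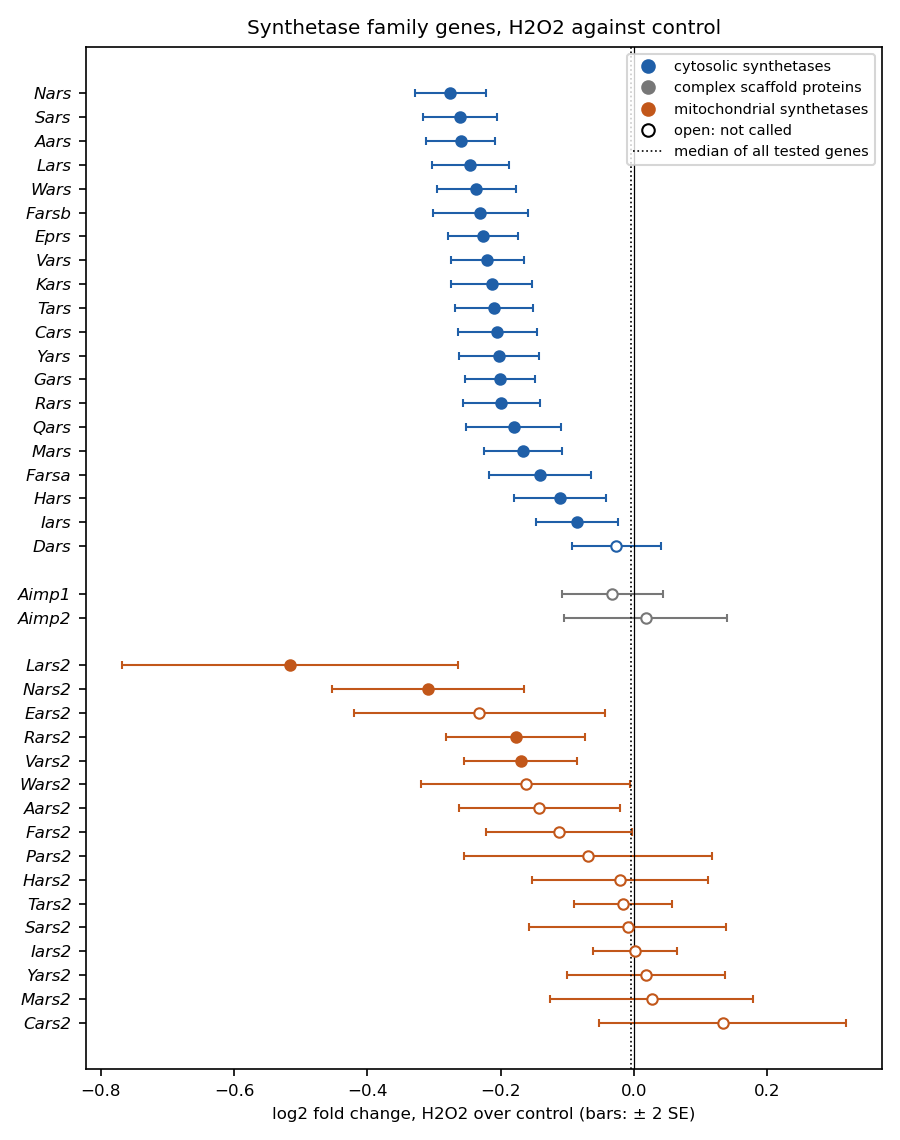
Log2 fold change of each of the 38 genes, H2O2 over control, with bars of 2 standard errors (SE) on either side; filled points were called in the fit across all genes and open points were not. The cytosolic genes lie between -0.28 (Nars) and -0.03 (Dars), and the mitochondrial genes between -0.52 (Lars2) and 0.13 (Cars2).

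Nars, the asparagine enzyme, had the largest log2 change of the cytosolic genes. It stood at 823, 848 and 836 CPM in control replicates 1 to 3 and at 677, 700.5 and 693 CPM in H2O2 replicates 1 to 3, a log2 fold change of -0.28 (SE 0.0266). The H2O2 libraries were all well below the lowest control, and the spread within each group was small beside the gap. Sars, the serine enzyme (chr3:108424865-108445209), went from 567, 583 and 586 CPM to 484, 474 and 490.0 CPM, a log2 fold change of -0.26 (SE 0.0276). Coordinates of genes are those of GENCODE M21 on GRCm38. Aars, which charges alanine tRNA (chr8:111033144-111057664), went from 823, 845 and 831 CPM to 698, 698 and 692 CPM (log2 fold change -0.26, SE 0.0260). In Aars, too, the groups were far apart, and exons of Exosc6 on the same strand cover 23.1% of its exon bases, where the assignment of reads is uncertain.

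Lars, the leucine enzyme, which also takes part in leucine sensing upstream of mTORC1, stood at 257, 255 and 261 CPM in controls and at 216, 217 and 219 CPM with H2O2. Its log2 fold change was -0.25 (SE 0.0288), and the H2O2 libraries were nearly equal. Wars, the tryptophan enzyme and a known interferon-gamma target, went from 281, 297 and 288 CPM to 246, 243 and 245 CPM (-0.24, SE 0.0297). Farsb, the beta subunit of the phenylalanine enzyme, went from 151, 156 and 156 CPM to 126, 130.3 and 138 CPM (-0.23, SE 0.0355). All 3 genes had separate groups, with H2O2 replicate 3 the closest to the controls for Farsb. Of the exon sequence of Farsb, 11.3% overlaps exons of Sgpp2 on the opposite strand, and the strand setting of the counting is not given in the sources used here.

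The middle of the cytosolic set was narrow. Eprs, Vars, Kars, Tars, Cars, Yars, Gars and Rars, which charge glutamate and proline, valine, lysine, threonine, cysteine, tyrosine, glycine and arginine tRNAs, had log2 fold changes from -0.23 (Eprs) to -0.20 (Rars), with SE of 0.0264 to 0.0305. Neighbours in this run differed by less than their SE. Eprs stood at 634, 629 and 630.0 CPM in controls and at 534, 543 and 541 CPM with H2O2. Gars, which supplies both compartments, stood at 667, 679 and 683 CPM and at 584, 586 and 596 CPM. Rars stood at 361, 366 and 364 CPM and at 308, 318 and 325 CPM, Vars at 575, 597 and 596 CPM and at 498, 511 and 509.9 CPM, and Cars at 287, 292 and 286 CPM and at 256, 242 and 253 CPM. Every H2O2 library of these genes was below every control. Kars, the other dual-compartment gene, changed by -0.21 (SE 0.0305), so both genes of this kind lay with the rest of the cytosolic set.

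Smaller changes were seen in Qars (glutamine, -0.18, SE 0.0356), Mars (methionine, -0.17, SE 0.0296), Farsa (-0.14, SE 0.0381), Hars (histidine, -0.11, SE 0.0344) and Iars (isoleucine, -0.09, SE 0.0305). Qars stood at 103, 103 and 107 CPM in controls and at 89.8, 92.8 and 93.6 CPM with H2O2, with a clear gap between the groups. Iars stood at 295, 316 and 305 CPM in controls and at 283, 288 and 292 CPM with H2O2, so that the lowest control was only slightly above the highest H2O2 library. Its call ended in 12 of 17 alternative analyses, with the log2 fold change at -0.06 at its smallest. The calls of Hars and Farsa each ended in fits that left out 1 library (for Hars without control replicate 1 or 3 or H2O2 replicate 2, for Farsa without H2O2 replicate 2). Of the exon sequence of Hars, 9.80% overlaps the oppositely oriented Hars2, and of that of Mars, 2.30% overlaps Ddit3.

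Dars, the aspartate enzyme and a subunit of the multisynthetase complex, was the one cytosolic gene not called. It stood at 117, 121 and 122 CPM in controls and at 118, 118 and 119 CPM with H2O2. The groups overlapped, and the log2 fold change was -0.03 with 2 SE on either side reaching from -0.09 to 0.04. That range does not hold the list median of -0.21. Dars and Iars were singled out after their values were seen. The cytosolic genes together took 0.745% ± 0.00502 of all gene counts in controls and 0.644% ± 0.0108 with H2O2 (mean ± SD, n = 3 each). Their median log2 difference from the control mean was -0.227, -0.216 and -0.173 in H2O2 replicates 1 to 3, smallest in replicate 3.

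**Figure D2:**
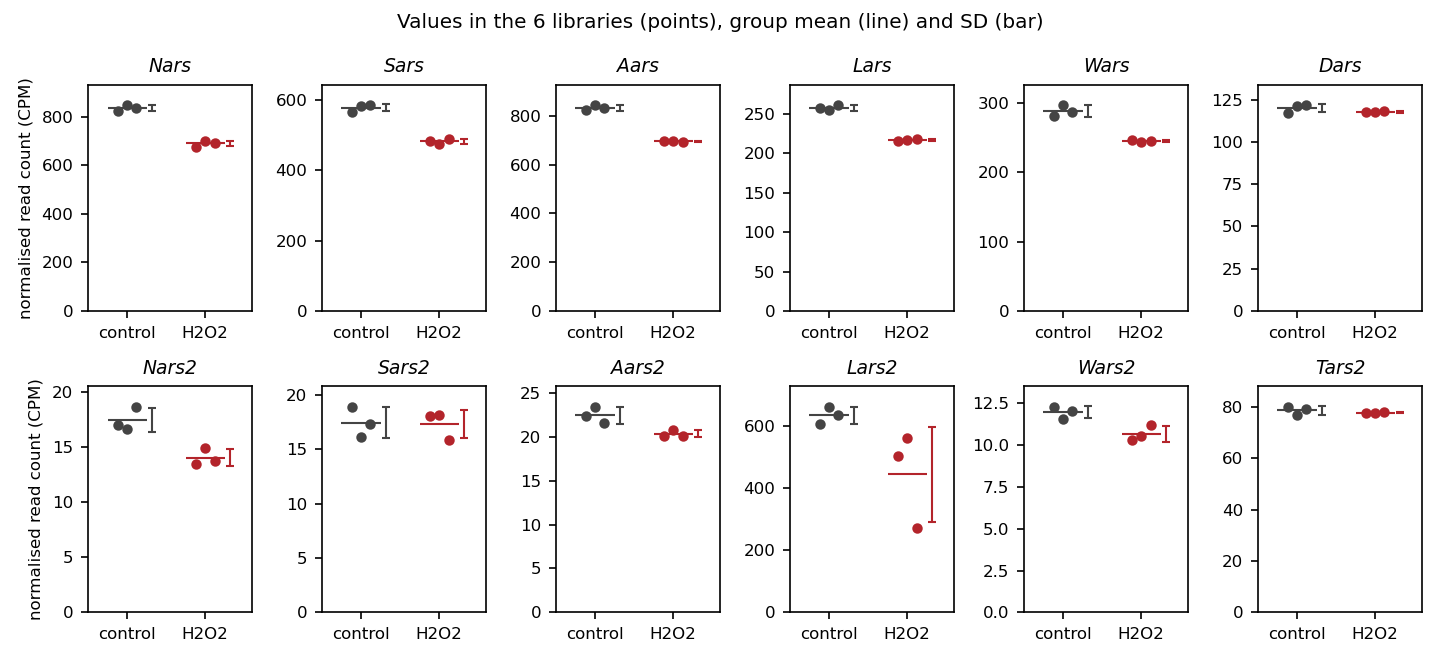
Normalised read counts (CPM, axes from 0) of 6 cytosolic genes (top) and 6 mitochondrial genes (bottom) in each of the 6 libraries, with group mean and SD. The H2O2 libraries lie below all controls for the cytosolic genes shown other than Dars, while those of Sars2 and Tars2 overlap the controls and Lars2 falls to 271 in H2O2 replicate 3.

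The 2 scaffold proteins were not called. Aimp1, which is also secreted as a cytokine precursor, stood at 71.5, 69.3 and 69.7 CPM in controls and at 69.7, 67.7 and 68.4 CPM with H2O2. Aimp2 stood at 19.98, 19.6 and 20.5 CPM and at 19.5, 20.5 and 20.7 CPM. Their groups overlapped, and the log2 fold changes were -0.03 (SE 0.0379) and 0.02 (SE 0.0614). The oppositely oriented gene Eif2ak1 overlaps 40.8% of the exon sequence of Aimp2. Of the 8 enzymes of the complex (Eprs, Iars, Lars, Qars, Mars, Kars, Rars and Dars) 7 fell, with a median of -0.19. All 12 other cytosolic genes fell, with a median of -0.21. Eef1e1, the remaining scaffold protein of the complex, which is not among the members, fell from 40.4, 41.3 and 47.3 CPM to 35.5, 35.9 and 34.5 CPM (-0.28, SE 0.0537).

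By catalytic class, the 9 cytosolic genes of class I (Rossmann-fold active site) all fell, with a median log2 fold change of -0.20. Of the 10 counted to class II (antiparallel-sheet active site), all but Dars fell, with a median of -0.21. Farsb is counted there as a subunit of a class II enzyme, not for an active site of its own. Eprs, which holds an active site of each class, is in neither count. Across the 20 cytosolic genes the log2 fold change had a Pearson correlation of -0.64 and a Spearman correlation of -0.60 with the log2 CPM in controls, so the more abundant genes had the larger falls. These genes share the same 6 libraries and the control values enter both measures. The Spearman correlation was -0.41 with exon length and -0.14 with GC content.

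Of 12 cytosolic genes that are usually named as ATF4 targets (Aars, Cars, Eprs, Gars, Iars, Lars, Mars, Nars, Sars, Tars, Wars and Yars), 12 fell, with a median of -0.22. Of the other 8, 7 fell, with a median of -0.19. This split was written from general knowledge, and the lists' ranges overlapped (-0.28 to -0.09 and -0.23 to -0.03). Falls were seen in both lists, and the part of ATF4 in them was not tested.

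ATF4 binds with C/EBP partners at elements whose core is TGATGNAA. RefSeq promoters (GRCm38.p6) were matched for 13 cytosolic, 2 scaffold and 14 mitochondrial members, not for Cars, Hars, Lars, Nars, Rars, Vars, Wars, Hars2 and Pars2. In the 250 bases before the start, on either strand, the core was found in 3 of the 13 cytosolic genes, in 0 of 2 scaffold genes and in 0 of 14 mitochondrial genes, and in 3.91% of 27025 genes in the table. No other motif was searched. The matches of Gars and Tars are shown, as genes that fell and hold the core near the start. Each window is written 5′ to 3′ on the gene's strand, with the match in capitals, and reads TGATGNAA on the opposite strand.
Gars (chr6:55037960-55037989, plus strand): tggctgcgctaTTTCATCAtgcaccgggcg
Tars (chr15:11399659-11399688, minus strand): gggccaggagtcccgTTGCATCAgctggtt
The matches begin 30 bases (Gars) and 15 bases (Tars) before the RefSeq start. The log2 fold changes of these genes, -0.20 and -0.21, lay within the range of the cytosolic genes whose promoters had no match, such as Sars (-0.26) and Dars (-0.03). A match is a run of letters and no evidence of binding, and genes without one may hold the element elsewhere.

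The mitochondrial set was more mixed. Of 16 genes, 4 fell (Lars2, Nars2, Vars2 and Rars2), 0 rose and 12 were not called. The median log2 fold change was -0.09, and it was -0.058 without H2O2 replicate 2. In 7 genes all H2O2 libraries lay below all controls, in 1 gene (Cars2) above them, and in 8 the groups overlapped. Over all tested genes, 18.2% had all H2O2 libraries below all controls and 16.5% above them. Most of these genes are much less abundant: 13 of the 16 lay below the level of Farsa, where 6.95% of all 9438 genes were called lower and 7.11% higher. The SE of the mitochondrial genes had a median of 0.0691, against 0.0296 in the cytosolic set, so a change of the cytosolic size was harder to call in them. The difference between the sets was not tested, since the members were chosen with this contrast known.

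Nars2, the mitochondrial asparagine enzyme, stood at 17.0, 16.6 and 18.7 CPM in controls and at 13.5, 14.9 and 13.7 CPM with H2O2, a log2 fold change of -0.31 (SE 0.0721). The groups did not overlap, and the size was close to that of Nars. Vars2 (valine) went from 55.2, 60.5 and 57.5 CPM to 51.1, 51.6 and 51.3 CPM (-0.17, SE 0.0427), with H2O2 libraries that were nearly equal. Rars2, the arginine enzyme, went from 35.9, 35.4 and 38.5 CPM to 30.7, 32.6 and 33.7 CPM (-0.18, SE 0.0521). Here too the groups were separate. The call of Vars2 ended without control replicate 2, and that of Rars2 without control replicate 3 or H2O2 replicate 1.

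Lars2, the mitochondrial leucine enzyme (chr9:123366927-123462666), gave the largest log2 change in the family, and 1 library decided its size. It stood at 608, 662 and 635 CPM in controls and at 502, 559.9 and 271 CPM with H2O2, a log2 fold change of -0.52 (SE 0.126). Without H2O2 replicate 3 the value was -0.26 and was still called. Its adjusted p was 0.238 in DESeq2's test, where the call was lost, and over the 17 alternatives it ran from 2.94e-69 to 0.238. Gm26924, mmu-mir-6236 and Gm15564, treated as rRNA-like in the processing given below, were low in the same library. Gm26924 took 3616 CPM there against 9834 and 11085 in H2O2 replicates 1 and 2. For mmu-mir-6236 the values were 52.0 CPM against 76.6 and 109.7. Gm15564 took 7.85 CPM there against 10.6 and 17.2. The part of this library in the change of Lars2 is given by the value without it, and the part of these features was not tested. Lars, the cytosolic leucine enzyme, was as low in H2O2 replicate 3 (219 CPM) as in the other H2O2 libraries. Without Lars2, 3 of 15 mitochondrial genes fell and the median was -0.07. Their summed share of the gene counts was 0.05005% ± 0.000584 (SD, n = 3) in control libraries and 0.0481% ± 0.000652 (SD, n = 3) in H2O2 libraries.

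**Figure D3:**
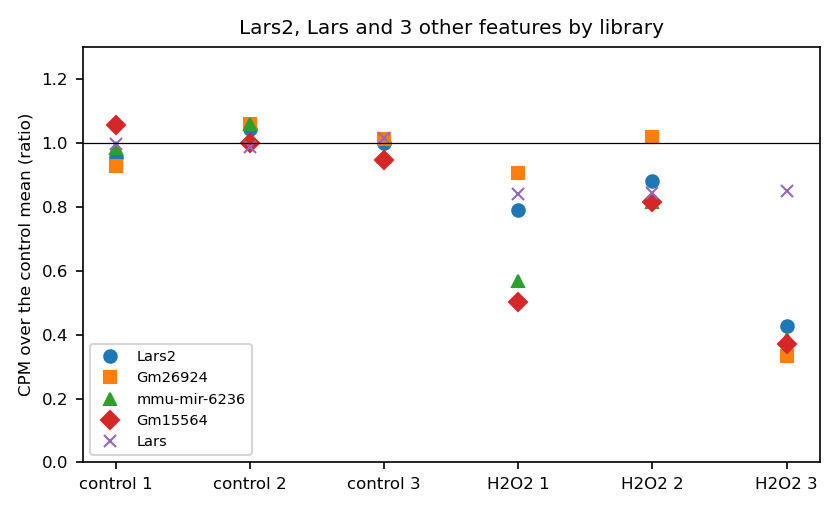
Normalised read count of Lars2, Lars, Gm26924, mmu-mir-6236 and Gm15564 in each library as a ratio to the gene's control mean. In H2O2 replicate 3 Lars2 (271 CPM) is low together with Gm26924 (3616 CPM), mmu-mir-6236 (52.0 CPM) and Gm15564 (7.85 CPM), and Lars (219 CPM) is not lower than in the other H2O2 libraries.

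The mitochondrial genes with the precision of the cytosolic set were Iars2 and Tars2, singled out after their values were seen. Iars2, the isoleucine enzyme, stood at 148, 143 and 146 CPM in controls and at 146, 146 and 146 CPM with H2O2, a log2 fold change of 0.00179 (SE 0.0317). Its range of 2 SE ran from -0.06 to 0.07 and did not hold the cytosolic median. Tars2 (threonine) stood at 80.1, 76.7 and 79.1 CPM and at 77.6, 77.6 and 78.0 CPM (-0.02, SE 0.0368). Both genes had overlapping groups. Qars, at 103 to 107 CPM in controls, and Farsa, at 77.1 to 78.8 CPM, are cytosolic genes of like abundance, and their log2 fold changes were -0.18 and -0.14. Hars, at 108 to 113 CPM, and Dars, at 117 to 122 CPM, also lie between Tars2 and Iars2 in abundance, and their values were -0.11 and -0.03. Farsb, at 151 to 156 CPM, lies just above Iars2, and its value was -0.23. At and near this abundance the log2 fold changes of the cytosolic genes thus reached from -0.23 to the level of the mitochondrial genes. Oppositely oriented genes overlap 32.2% of the exon sequence of Iars2.

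The other uncalled genes had wide errors. Aars2 (alanine) went from 22.3, 23.4 and 21.5 CPM to 20.1, 20.8 and 20.1 CPM (-0.14, SE 0.0606), a narrow gap. Wars2 (tryptophan) went from 12.3, 11.55 and 12.01 CPM to 10.3, 10.5 and 11.2 CPM (-0.16, SE 0.0784), and Fars2 (phenylalanine) from 28.99, 31.1 and 29.4 CPM to 27.8, 26.3 and 28.6 CPM (-0.11, SE 0.0547). Ears2 (glutamate) had a log2 fold change of -0.23 (SE 0.0943). In Aars2, Wars2 and Fars2 the H2O2 libraries lay below all controls, and in Ears2 they overlapped. Ears2 was called without control replicate 2 (-0.31) and without H2O2 replicate 3 (-0.29). Sars2, the serine enzyme, stood at 18.9, 16.1 and 17.3 CPM and at 18.1, 18.2 and 15.8 CPM (-0.00940, SE 0.0737), with overlapping groups. Pars2 (-0.07), Hars2 (-0.02), Yars2 (0.02) and Mars2 (0.03), for proline, histidine, tyrosine and methionine, also overlapped. Cars2, the mitochondrial cysteine enzyme, had the most positive value: it stood at 7.46, 7.70 and 8.11 CPM in controls and at 8.13, 9.13 and 8.21 CPM with H2O2 (0.13, SE 0.0924), and the lowest H2O2 library was barely above the highest control.

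By catalytic class, 3 of 9 mitochondrial genes of class I fell (Lars2, Rars2 and Vars2; median -0.16) and 1 of 7 of class II (Nars2; median -0.07). Across the 16 genes the Spearman correlation of the log2 fold change with the log2 CPM in controls was -0.22, and the Pearson correlation was -0.49, with Lars2 both the most abundant and the most negative point. The Spearman correlation was 0.03 with exon length and -0.11 with GC content.

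Set side by side for the same amino acid, 13 of 16 pairs had a more negative log2 fold change in the cytosolic gene than in the mitochondrial gene, and the median of the differences was -0.09. Eprs stands in 2 of these pairs, with Ears2 and with Pars2. The largest differences with the cytosolic gene more negative were those of Cars and Cars2 (-0.34), Sars and Sars2 (-0.25) and Yars and Yars2 (-0.22). In Eprs with Ears2 (0.01), Nars with Nars2 (0.03) and Rars with Rars2 (-0.02) the genes of both compartments had close values. Lars with Lars2 (0.27) was the widest pair in the other direction, and it carries the library noted for Lars2. In 5 pairs (Aars, Cars, Hars, Tars and Yars with their partners) the ratio of cytosolic to mitochondrial level was lower in every H2O2 library than in every control. The ratio overlapped between groups in 11 pairs. No such share was computed for pairs of other genes. The members were chosen with this contrast known, so nothing is read from these counts.

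**Figure D4:**
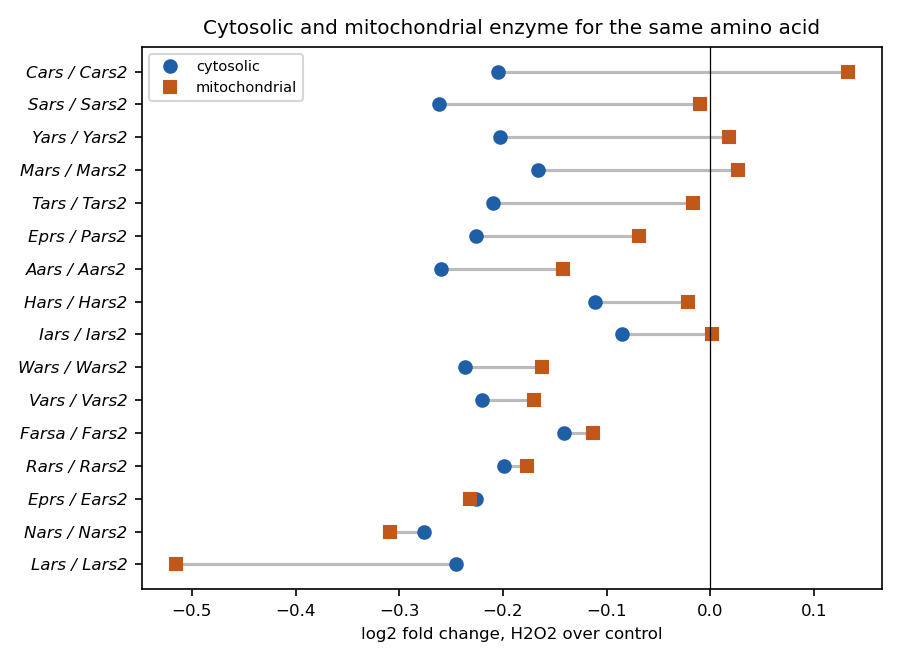
Log2 fold change, H2O2 over control, of the cytosolic gene (circle) and the mitochondrial gene (square) for the same amino acid, ordered by the difference between them. The circle lies left of the square in 13 of 16 pairs, with the widest gap in Cars and Cars2, and right of it in Eprs with Ears2, Nars with Nars2 and Lars with Lars2.

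Levels in the controls also differed between the compartments. Per kilobase of annotated exon, the cytosolic genes had a median of 95.8 CPM per kb and the mitochondrial genes 7.64. The cytosolic gene was the higher in 15 of 16 pairs, from 3.15-fold (Iars over Iars2) to 67.9-fold (Nars over Nars2), and the median ratio over all 16 pairs, with Lars over Lars2 at 0.397, was 14.1. Nars (286 ± 4.30 CPM per kb) and Gars (284 ± 3.57; SD, n = 3) were the most abundant, and their control ranges overlapped. Rars (172 ± 1.31) came next, above Lars2 (163 ± 7.03), whose range overlapped that of Sars (159 ± 2.87). Lars2 was the exception among the pairs, with a level above that of Lars (64.7 ± 0.851). Whether rRNA-like reads were counted to Lars2, in controls or with H2O2, was not tested.

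At the low end of the cytosolic set, Qars (37.3 ± 0.853 CPM per kb) still lay above Iars2 (21.9 ± 0.441), the next mitochondrial gene after Lars2. Mars2 was the least abundant member (1.25 ± 0.0619 CPM per kb), on a long annotated exon length of 11294 bases, and at 14.8, 14.0 and 13.4 CPM in controls and 13.1, 15.3 and 14.8 CPM with H2O2 its groups overlapped. Of 37 neighbouring pairs in the order of levels, 13 had overlapping control ranges. Farsa and Farsb, whose proteins assemble in equal numbers, differed in level: the ratio of Farsa to Farsb per length was 0.626, 0.609 and 0.595 in controls and 0.690, 0.631 and 0.629 with H2O2. The lowest H2O2 value was just above the highest control, and the gap was small beside the spread within the groups.

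**Figure D5:**
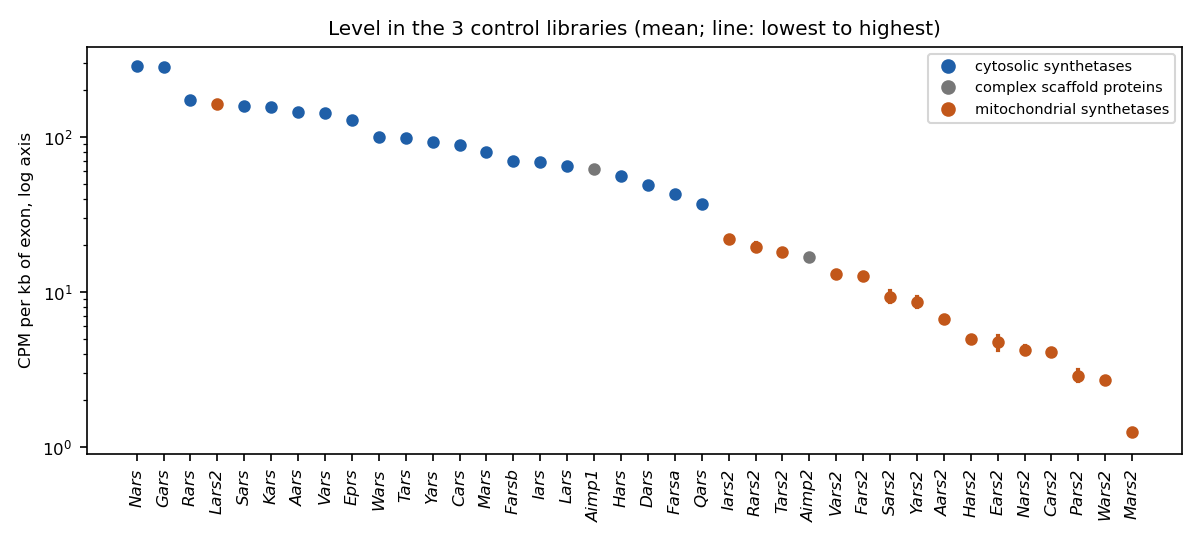
Level of the 38 genes in the 3 control libraries in CPM per kb of exon on a log axis, in falling order, with the mean as a point and the lowest to highest library as a line. The 20 cytosolic genes hold the upper ranks from Nars (286) to Qars (37.3), joined only by Lars2 (163) and Aimp1 (62.3), and Mars2 (1.25) is last.

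Neighbouring steps of the pathway were counted from lists drawn up by role. Of 22 genes of the GCN2 and ATF4 pathway, 12 fell and 0 rose, with a median of -0.12. Over all tested genes 10.8% were called lower and 9.7% higher, and 21.2% were called lower at or above the level of Farsa. The list was chosen with earlier results of these data known, so nothing is read from the difference between these shares. Asns, which makes asparagine, fell from 363, 382 and 381 CPM to 293, 299 and 321 CPM (-0.30, SE 0.0333). Ppp1r15a (-0.53), which directs a phosphatase to eIF2 alpha, and the cystathionine gamma-lyase gene Cth (-0.57) fell further than the median of the synthetases. The most abundant gene, the amino acid transporter Slc7a5, was not called (-0.07, SE 0.0276). Singled out after their values were seen, Atf4 itself fell (-0.12, SE 0.0267), and the GCN2 gene Eif2ak4 was not called (-0.11, SE 0.0602).

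Of 15 tested factors that complete or correct tRNA charging, 2 fell and 0 rose, with a median of -0.04. These were Eef1e1, given above, and Trnt1, which adds the CCA end to tRNAs (-0.20, SE 0.0599). Pstk, which acts in making selenocysteine tRNA, had the most positive value and missed the threshold (0.24, SE 0.0871; edgeR adjusted p = 0.0511); it was singled out after its value was seen. Xpot, the nuclear export receptor of tRNAs and the most abundant of the list, was not called (-0.05, SE 0.0299). Of 10 elongation factors, 2 rose and 2 fell, with a median of -0.04. Eef2, the translocation factor, fell from 3876, 4020.2 and 3940.5 CPM to 3379, 3424 and 3465 CPM (-0.21, SE 0.0266), and its H2O2 libraries were all below the controls. Eef1b2, the exchange factor of the elongation factor that delivers charged tRNA, rose (0.33, SE 0.0312), and Tufm, the mitochondrial counterpart of that delivery factor, fell (-0.13, SE 0.0368).

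Of 15 genes of mitochondrial ribosomes, tRNA processing and mitochondrial transcription, 3 fell and 2 rose, with a median of -0.08. Lrpprc, which stabilises mitochondrial mRNAs and was the most abundant, fell (-0.16, SE 0.0333), as did the tRNA 3′ processing gene Elac2 (-0.16, SE 0.0425), while the mitochondrial ribosomal protein gene Mrpl12 rose (0.24, SE 0.0584). Over all tested genes 10.8% were called lower and 9.7% higher. At or above the level of Farsa these shares were 21.2% and 16.7%, and below it 6.95% and 7.11%. In the last 3 lists 2 of 15, 2 of 10 and 3 of 15 were called lower, and 0, 2 and 2 higher. The lists are short, and nothing is read from the difference between these counts and shares. All comparisons use the same 6 libraries.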

How the data were processed

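Per the labels, mRNA libraries were made from 100 ng of total RNA. For every library the authors deposited a table of raw, unnormalised counts by gene symbol. The tools named in the submitters' processing notes are STAR 2.5.3, HTSeq, cutadapt, DESeq2 and bcl2fastq 2.17.1.14, with the build mm10, and their roles are not stated there. The annotation and strand setting are not given in the sources used here. HTSeq's summary classes were left out: 4.76% to 5.46% of reads had no feature, 3.17% to 3.30% were ambiguous and 11.03% to 11.7% aligned to several places, which can lower genes with near-identical copies.

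Of 33006 genes, 12924 passed filterByExpr and were tested with edgeR 4.0.16 (R 4.3.3; quasi-likelihood test, TMM factors, treatment as the only term, Benjamini-Hochberg adjustment, threshold 0.05). Fold changes are H2O2 over control. The SE is the log2 fold change divided by the root of the F statistic. Exon lengths (union of basic GENCODE M21 exons) and overlaps use GRCm38, the assembly of mm10. The fit was tested on simulated data. Alternatives were DESeq2 1.42.0, limma-voom (limma 3.58.1), other scaling factors and filters, the replicate block, an offset for length and GC content (loess, span 0.3; 94.6% of tested genes had a value) and fits without each library. Scaling without rRNA-like, mitochondrial and ribosomal protein genes was added after the data were seen.

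The members and lists were chosen with earlier results of these data known. Named with values in every library are the 6 cytosolic and 4 mitochondrial called members of largest change, the largest opposite mover, their partners, the scaffold proteins and the most and least abundant members. Of each further list, up to 3 called genes of smallest p and the most abundant gene are named. Genes named outside these rules are said to be so or are given for the account of every member. The sequence of 1 further promoter match is not reported here.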

Additional observations from a re-analysis of the deposited data

How the results depend on the processing

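No member changed the sign of a called value in any of the 17 alternatives, and 17 of the 23 called members stayed past the threshold in all of them. The exceptions were Iars, Hars, Farsa, Rars2, Vars2 and Lars2, given with their values or libraries in the report. The cytosolic genes called lower numbered 16 to 19 when 1 library was left out, with 16 without H2O2 replicate 2, and 18 or 19 in the other alternatives. The mitochondrial genes called lower numbered 3 to 5 and 3 or 4. The median log2 fold change of the mitochondrial genes was -0.13 when control replicate 1 was left out and -0.058 when H2O2 replicate 2 was left out, the ends of its range, and that of the cytosolic genes went from -0.22 to -0.19. Over all genes, 1826 to 2490 were called with 1 library left out, in place of 2649. Under the length and GC offset, the medians were -0.19 and -0.08. With upper-quartile factors the calls over all genes were 1455 higher and 1190 lower, in place of 1254 and 1395. Control and H2O2 libraries share the numbers 1 to 3 in the labels, but deviations of same-numbered libraries correlated at only 0.00224, 0.0299 and -0.0261, so the numbers were not taken as pairs. With the replicate block, 2738 genes, 19 cytosolic and 4 mitochondrial members were called. Depth limits the least abundant mitochondrial genes, where SE reached 0.0943 without Lars2.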
